A study of Danio rerio with 26 samples.

Results

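The zebrafish genes fut9b.1 to fut9b.6 are 6 neighbouring copies of a fucosyltransferase gene, picked out by their 6 Ensembl identifiers from the 32105 genes counted in male zebrafish skin. They were chosen because fut9b.2 and fut9b.3 stood apart between the age groups of these same fish, so the difference with age is given for the copies as a description, with no test. RNA-seq libraries of total RNA came from 26 fish, each labelled by its own fish number. The groups were 3-year-old fish at 37.5 nM rotenone (n = 8), 1-year-old fish at 37.5 nM rotenone (n = 9) and 1-year-old fish at 3.75 nM rotenone (n = 9). Rotenone inhibits complex I of the mitochondrial respiratory chain, and every group carried it, so no value here compares exposed with unexposed fish. How long the exposure lasted is not stated in the labels. Counts were deposited in 1 table for each concentration, so concentration and deposited table cannot be told apart. The 1-year fish carried the strain label AB JxTu and the 3-year fish AB JxTu Tg(flk:mCherry), a red fluorescent reporter under the promoter of a vascular receptor gene, so age and strain label cannot be told apart. Fish numbers fell into a low run and a high run within each group, with 4 and 4 fish at 3 years, 4 and 5 at 1 year and 37.5 nM, and 4 and 5 at 1 year and 3.75 nM, and the labels do not say what the runs are.

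Fut9 enzymes, studied mostly in mouse and human, move fucose from GDP-fucose onto N-acetyllactosamine, a sugar chain at the ends of glycoproteins and glycolipids, and thereby build the Lewis x structure. Chains that carry both fucose and sialic acid can be ligands of selectins, the adhesion receptors of blood vessel walls and leukocytes. In mammalian leukocytes another enzyme, that of fut7, completes these ligands. Fish skin is a living epithelium under a mucus layer, and its mucus glycoproteins are rich in fucose and sialic acid.

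The copies were fut9b.1 (ENSDARG00000067524), fut9b.2 (ENSDARG00000058299), fut9b.3 (ENSDARG00000027699), fut9b.4 (ENSDARG00000086603), fut9b.5 (ENSDARG00000102426) and fut9b.6 (ENSDARG00000102554). In the RefSeq annotation of GRCz12tu, a later build than the GRCz10 build of the counts, they lay side by side in the order fut9b.1, fut9b.2, fut9b.3, fut9b.6, fut9b.4, fut9b.5 with 0 other annotated entries between them. There the gene models of all 6 copies overlapped that of another copy, in 10 pairs. The library kit does not mark strand, and the labels do not say how reads shared by near-identical copies were counted, so the split of reads between copies is uncertain.

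Between 25454674 and 35162246 reads per fish were assigned to genes. All 13 skin epithelium markers averaged over 1 CPM (reads scaled to a common library size with edgeR's TMM factors), among them krt4, krt5, epcam and cdh1. Their summed level spanned 26594 to 69738 CPM at 3 years, 35542 to 54022 CPM at 1 year and 37.5 nM, and 30287 to 64973 CPM at 1 year and 3.75 nM. Skeletal muscle markers (9 of 11 over 1 CPM) were also present and uneven, at 3675 to 42653, 2337 to 18191 and 2836 to 30184 CPM in the same order of groups. The 3-year fish with the most muscle RNA, replicate 3 of the low run, also had the least epithelial marker RNA. In bulk skin, fewer cells of a type and less RNA per cell cannot be told apart.

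With age, fut9b.2 and fut9b.3 were expressed in every 3-year fish and close to 0 in every 1-year fish of either concentration. The level of fut9b.2 in 3-year fish was 38.0, 20.2, 4.27 and 28.2 CPM for fish of the low run and 41.7, 18.5, 25.1 and 8.07 CPM for those of the high run, from 96 to 1061 reads a fish. In 1-year fish it was 0 to 0.218 CPM (median 0.157, 0 to 6 reads) at 37.5 nM and 0 to 0.270 CPM (median 0.119, 0 to 8 reads) at 3.75 nM. One 1-year fish at each concentration had no read, which allows a level of up to 0.112 CPM in each (3 reads; counting error only). The lowest 3-year fish therefore stood above the highest of the 18 1-year fish. The level averaged 23.0 ± 13.1 CPM at 3 years (SD, n = 8), 0.130 ± 0.083 CPM at 1 year and 37.5 nM (n = 9), and 0.135 ± 0.081 CPM at 1 year and 3.75 nM (n = 9). The edgeR log2 fold change at 37.5 nM, 3 years over 1 year, was 7.42 ± 0.53 (SE), and it came to 7.28 among low-run fish and to 7.55 among high-run fish.

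The level of fut9b.3 in 3-year fish was 13.9, 7.32, 3.02 and 10.3 CPM for fish of the low run and 16.5, 5.84, 11.4 and 5.65 CPM for those of the high run, from 68 to 419 reads. In 1-year fish it was 0.176 to 0.569 CPM (median 0.327, 5 to 19 reads) at 37.5 nM and 0.144 to 0.864 CPM (median 0.338, 4 to 23 reads) at 3.75 nM. These groups did not overlap either. Its means were 9.23 ± 4.58 CPM at 3 years, 0.361 ± 0.119 CPM at 1 year and 37.5 nM, and 0.373 ± 0.246 CPM at 1 year and 3.75 nM (SD, n = 8, 9 and 9). The log2 fold change with age was 4.66 ± 0.33 (SE), with 4.67 in either run. Leaving out each fish in turn gave 7.24 to 7.58 for fut9b.2 and 4.49 to 4.80 for fut9b.3.

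Among 19592 genes passing the filter on low counts over 26 fish, 27 (0.138%) were higher in every 3-year fish than in every 1-year fish at 37.5 nM, fut9b.2 and fut9b.3 among them. Against the 1-year fish at 3.75 nM the share was 0.128%, and against all 1-year fish it was 8 genes (0.0408%), again with these copies. Of 18935 genes tested with age, 241 (1.27%) passed an adjusted p of 0.05 in edgeR's quasi-likelihood test. All 6 copies passed the filter in this comparison, fut9b.2 and fut9b.3 only through the 3-year fish, since neither passed it in 1-year fish. The copies were chosen on this contrast, and these shares are given only as its background.

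**Figure D1:**
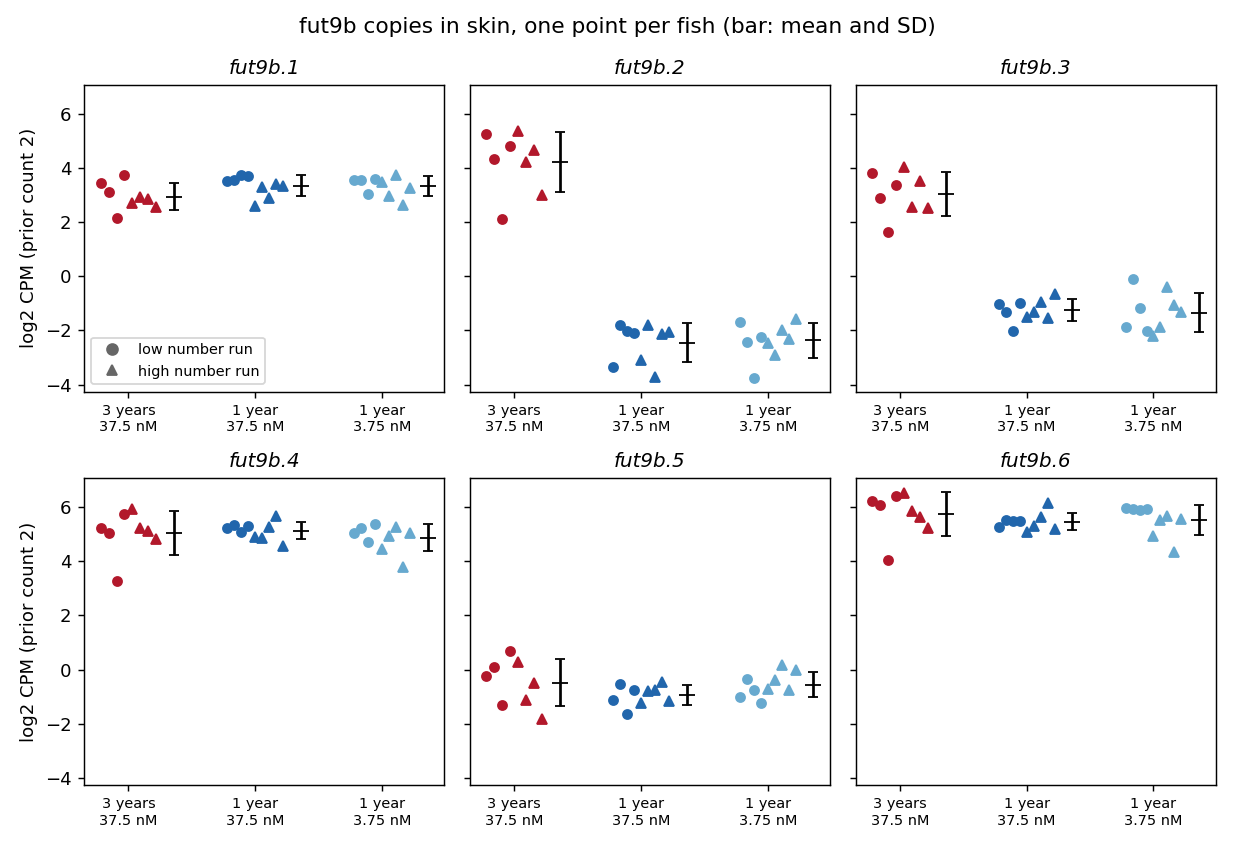
Level of each fut9b copy in log2 CPM (prior count 2) in every fish, by group, with circles for the low and triangles for the high fish number run and a bar for the mean and SD. The fut9b.2 and fut9b.3 points of the 8 3-year fish all lie above those of the 18 1-year fish, while the groups overlap for the other copies.

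For the other 4 copies the 3-year and 1-year fish overlapped. The abundant fut9b.6 had 16.3 to 91.0 CPM at 3 years (median 63.0), against 33.8 to 71.6 CPM (median 44.5) at 1 year and 37.5 nM, a log2 fold change of 0.42 ± 0.25 (SE). For fut9b.4 the levels were 9.60 to 60.7 CPM at 3 years (median 36.1), against 23.9 to 51.3 CPM (median 37.3) at 1 year and 37.5 nM, and the log2 fold change was 0.05 ± 0.25. The lowest 3-year value of both was that of replicate 3, the fish with the most muscle RNA. Without that fish the log2 fold change was 0.57 ± 0.18 for fut9b.6 and 0.20 ± 0.18 for fut9b.4 (SE). These were the highest values when each fish was left out in turn, and the lowest were 0.31 and -0.09. The part of muscle RNA in the result was not tested. The level of fut9b.1 was 4.40 to 13.2 CPM at 3 years (median 7.37), against 6.02 to 13.4 CPM (median 10.7) at 1 year and 37.5 nM, with a log2 fold change of -0.36 ± 0.20. The sparse fut9b.5 had 0.217 to 1.54 CPM at 3 years (median 0.706, 7 to 46 reads), against 0.247 to 0.645 CPM (median 0.508, 7 to 17 reads), with a log2 fold change of 0.71 ± 0.34 (1.07 among low-run and 0.29 among high-run fish).

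To compare copies with each other, CPM was divided by the length in kilobases implied by the deposited counts and RPKM, about 1674, 1338, 1448, 845, 1288 and 1404 bases for fut9b.1 to fut9b.6. On that scale fut9b.4 and fut9b.6 led in every group. At 3 years the mean levels per kilobase were 43.8 for fut9b.4, 42.8 for fut9b.6, 17.2 for fut9b.2, 6.38 for fut9b.3, 4.80 for fut9b.1 and 0.586 for fut9b.5. Neighbours in this 3-year order did not separate in 2 cases: fut9b.4 exceeded fut9b.6 in 5 of 8 fish, and fut9b.3 exceeded fut9b.1 in 4 of 8. At 1 year and 37.5 nM the order was fut9b.4 (42.5), fut9b.6 (32.1), fut9b.1 (6.23), fut9b.5 (0.361), fut9b.3 (0.249) and fut9b.2 (0.0973). Each copy there exceeded the next in 8 or 9 of 9 fish. At 1 year and 3.75 nM the order was the same, with 36.2, 34.9, 6.10, 0.495, 0.258 and 0.101 per kilobase, and fut9b.4 exceeded fut9b.6 in 7 of 9 fish. So fut9b.2 followed fut9b.4 and fut9b.6 at 3 years and stood last at 1 year. The same length per copy was used for every fish, so these counts of fish do not cover error in the lengths. By reads alone fut9b.6 exceeded fut9b.4 in every fish, at 1.05 to 2.28 reads per fut9b.4 read. Implied lengths spanned 784 to 991 bases for fut9b.4 and 1312 to 1637 bases for fut9b.6 across fish.

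The sum of the 6 copies per kilobase was 31.1 to 184.0 at 3 years (mean 115.5 ± 48.7, SD), 61.0 to 118.9 at 1 year and 37.5 nM (81.5 ± 17.3) and 35.5 to 100.1 at 1 year and 3.75 nM (78.0 ± 21.0), and the groups overlapped. As a share of that sum, fut9b.2 held 14.0% ± 3.88 at 3 years (8.20% to 19.9%), against 0.123% and 0.138% in the 1-year groups at 37.5 and 3.75 nM. The share of fut9b.3 was 5.59% ± 1.31 at 3 years, against 0.323% and 0.351%. In replicate 3, the 3-year fish with the lowest sum, the level of every copy but fut9b.5 was the lowest of its group, yet its share of fut9b.2 was within the range of the other 3-year fish. The share of fut9b.1 was 4.68% ± 1.76 at 3 years, against 7.79% ± 1.90 and 8.12% ± 1.99 at 1 year, with overlap. That of fut9b.4 was 31.3% to 44.9% at 3 years, against 46.4% to 55.6% at 1 year and 37.5 nM, without overlap. At 1 year and 3.75 nM it was 39.1% to 49.4%, which overlapped the 3-year range. The mean share of fut9b.6 was 37.1% at 3 years, against 39.3% and 44.3% at 1 year, with overlap. Shares of 1 sum depend on each other, so these are descriptions.

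**Figure D2:**
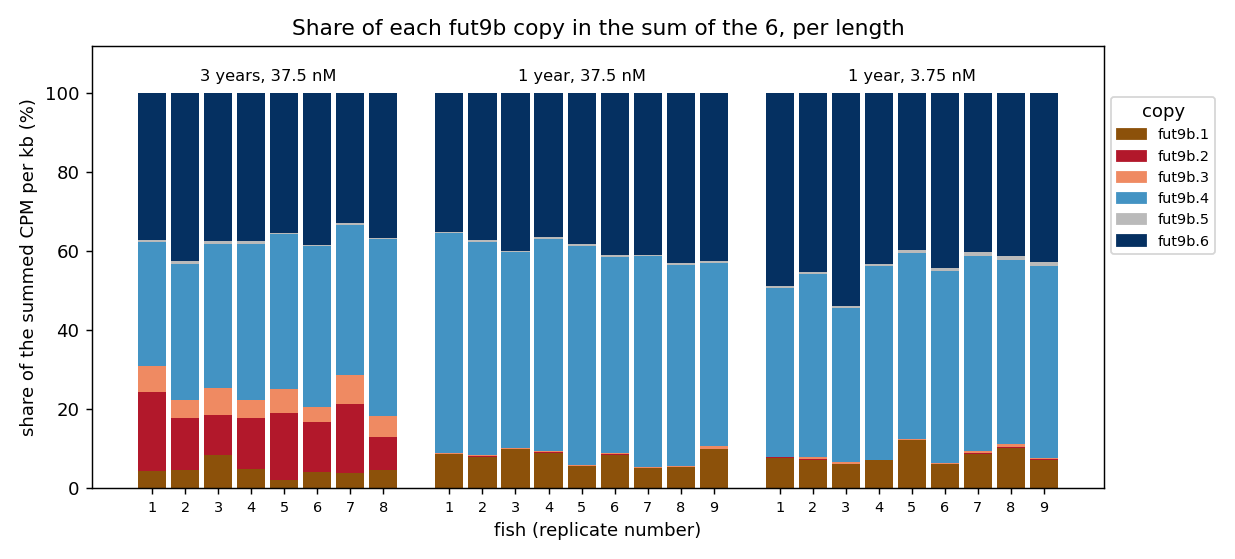
Share in percent of each copy in the sum of the 6 copies per kilobase, one bar per fish, in the 3 groups. The red and orange segments of fut9b.2 and fut9b.3 are visible in all 8 3-year fish, where fut9b.2 holds 8.20% to 19.9%, and are too thin to see in most 1-year fish.

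How far the copies varied together from fish to fish differed between pairs and between groups. Within the 8 3-year fish all 15 pairs of copies had a positive Pearson correlation of log2 CPM, with a median of 0.776 (0.682 without replicate 3). Within the 9 1-year fish at 37.5 nM 9 of 15 pairs were positive (median 0.151), and within the 9 at 3.75 nM 14 were (median 0.182). The difference between the groups was not tested. Most pairs include fut9b.2, fut9b.3 or fut9b.5, with 0 to 8, 4 to 23 and 7 to 27 reads in 1-year fish. The part of counting error in the 1-year medians was not tested. Among copies with more reads, fut9b.1 with fut9b.4 had 0.692 at 3 years, and 0.282 and 0.761 at 1 year (37.5 and 3.75 nM). For fut9b.1 with fut9b.6 the values were 0.78, 0.291 and 0.608 in the same order. Without replicate 3 the 3-year values of these pairs were 0.358 (fut9b.1 with fut9b.4) and 0.593 (fut9b.1 with fut9b.6). With group means removed, all 15 pairs of copies had a positive correlation over 26 fish, between 0.271 and 0.932 with a median of 0.539. The highest was that of fut9b.4 with fut9b.6 (0.932), and the next was 0.623. Without 3-year replicate 3 the 15 values were 0.0908 to 0.876, fut9b.4 with fut9b.6 still the highest. Within the 8 3-year fish fut9b.2 and fut9b.3 had a correlation of 0.947 (0.890 over the 7 fish without replicate 3). In the 1-year fish, where both had few reads, their correlations were -0.275 at 37.5 nM and 0.00244 at 3.75 nM. At 37.5 nM fut9b.3 was also negative with fut9b.6 (-0.279) and with fut9b.4 (-0.254), whereas fut9b.4 with fut9b.6 stayed high in both 1-year groups (0.847 and 0.895). Copies in 1 fish share the library, the depth and possibly the reads, so these are descriptions.

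Within a fish, fut9b.2 had 2.37 ± 0.644 reads per fut9b.3 read at 3 years (1.41 to 3.16), against 0.423 ± 0.329 at 1 year and 37.5 nM (0 to 1) and 0.507 ± 0.395 at 1 year and 3.75 nM (median 0.333). Every 3-year fish had a higher ratio than every 1-year fish. Both copies were chosen on the age difference, so this separation is a description and no separate support. The 1-year ratios rest on few reads, 0 to 8 for fut9b.2 and 4 to 23 for fut9b.3. The number of fut9b.6 reads per fut9b.4 read was 1.64 ± 0.247 at 3 years, 1.26 ± 0.154 at 1 year and 37.5 nM, and 1.61 ± 0.300 at 1 year and 3.75 nM. In the low run this ratio was 1.05 to 1.34 at 1 year and 37.5 nM and 1.47 to 2.28 at 1 year and 3.75 nM, without overlap. In the high run it was 1.14 to 1.52 and 1.35 to 1.51 in the same groups, and they overlapped. The ratio was not tested, and no share over other pairs of genes was computed for it. Of all single genes, 26.7% passed an adjusted p of 0.05 between the concentrations in the low run alone and 0% in the high run alone (edgeR).

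**Figure D3:**
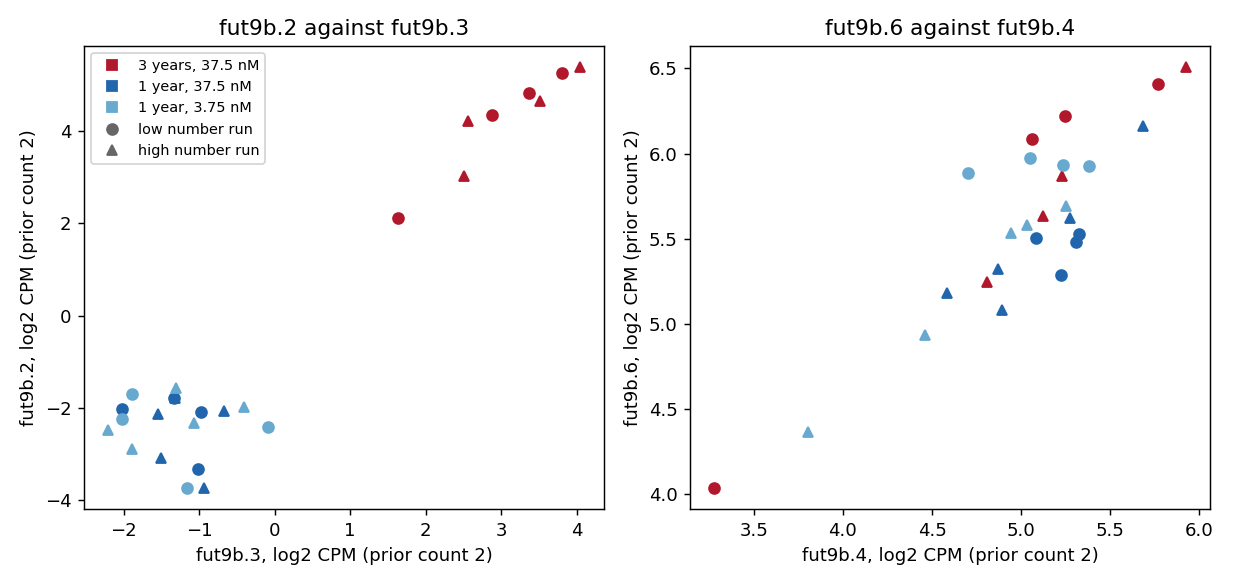
Level of fut9b.2 against fut9b.3 (left) and of fut9b.6 against fut9b.4 (right), both axes in log2 CPM (prior count 2), one point per fish, coloured by group and shaped by fish number run. On the left the 3-year fish form a separate line above the 1-year cloud, and on the right the 3 groups share 1 band, with 3-year replicate 3 at its low end.

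The comparison of 37.5 nM with 3.75 nM in 1-year fish, which did not choose the copies, asks whether the copies differed with rotenone concentration, and 0 of the 4 copies tested did (edgeR's quasi-likelihood test, Benjamini-Hochberg adjusted over 18793 genes, of which 804, or 4.28%, passed). Also by unadjusted p and by DESeq2, 0 of them passed 0.05. Fish of each concentration came in their own deposited table, which this comparison cannot separate from concentration. fut9b.6 had 33.8 to 71.6 CPM at 37.5 nM (mean 45.1 ± 11.1, SD) and 20.5 to 62.9 CPM at 3.75 nM (49.0 ± 14.8), with a log2 fold change of -0.13 ± 0.19 (SE, edgeR adjusted p = 0.744). fut9b.4 averaged 35.9 ± 7.96 CPM at 37.5 nM and 30.6 ± 8.74 CPM at 3.75 nM, a log2 fold change of 0.22 ± 0.18 (edgeR adjusted p = 0.494). fut9b.1 averaged 10.4 ± 2.45 and 10.2 ± 2.42 CPM at 37.5 and 3.75 nM, a log2 fold change of 0.02 ± 0.17 (edgeR adjusted p = 0.959). fut9b.5 averaged 0.465 ± 0.129 and 0.638 ± 0.229 CPM at 37.5 and 3.75 nM, a log2 fold change of -0.46 ± 0.24 (edgeR adjusted p = 0.263). The 95% intervals of the log2 fold change were -0.33 to 0.37 for fut9b.1, -0.15 to 0.60 for fut9b.4, -0.96 to 0.04 for fut9b.5 and -0.53 to 0.27 for fut9b.6.

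The low copies fut9b.2 and fut9b.3 did not pass the filter in 1-year fish. In the edgeR fit without a filter their log2 fold changes were -0.04 ± 0.55 and -0.03 ± 0.36 (SE, edgeR adjusted p = 0.989 for both). With 95% intervals of -1.18 to 1.11 and -0.78 to 0.72, the counts remain compatible with a difference inside those bounds.

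For fut9b.6 the fish number runs gave different values. In the low run it had 39.0, 46.0, 45.3 and 44.5 CPM at 37.5 nM, against 62.9, 61.1, 59.2 and 60.9 CPM at 3.75 nM. All 4 fish at 37.5 nM were below all 4 at 3.75 nM, and the log2 fold change in the low run alone was -0.49 ± 0.08 (SE, edgeR adjusted p = 0.00298). In that run 26.7% of 18820 genes passed. In the high run fut9b.6 had 33.8, 39.9, 49.1, 71.6 and 36.3 CPM at 37.5 nM, against 30.6, 46.3, 51.5, 20.5 and 47.7 CPM at 3.75 nM, and these overlapped. The log2 fold change in the high run alone was 0.22 ± 0.28, and 0% of genes passed there. The difference between the runs was 0.72 ± 0.34 on the log2 scale (unadjusted p = 0.0492, adjusted p = 0.228 in edgeR), so it did not pass, where 6.4% of genes did. Of 11 cell type marker lists, that of ionocytes alone differed between the concentrations without overlap in the low run. It summed to 69.2 to 76.2 CPM at 37.5 nM, against 100.1 to 143.2 CPM at 3.75 nM. Most of this sum was ATP6V1A, with mean levels of 45.9 and 18.8 CPM for the genes of that name. The other members averaged 12.8 (ca2), 1.90 (foxi3b), 1.44 (TRPV6) and 0.519 CPM (foxi3a). In the high run the list summed to 61.9 to 82.9 and 67.8 to 73.9 CPM in the same groups, and 0 lists differed without overlap. Skin epithelium markers also moved: at 3.75 nM they summed to 30287 to 38851 CPM in the high run and 51922 to 64973 CPM in the low run, and at 37.5 nM to 35732 to 54022 and 35542 to 52551 CPM. The part of both lists in the result was not tested.

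Across the 26 fish, in the comparison of the high run with the low run, with group as a term, 2823 of 19784 genes (14.3%) and 0 of the 6 copies passed the threshold in edgeR. By unadjusted p 1 copy passed 0.05, and by DESeq2's adjusted p 0 did. That copy was fut9b.1, with a log2 fold change of -0.38 ± 0.14 (SE, unadjusted p = 0.0137, adjusted p = 0.0750 in edgeR). Its level was 5.87 to 7.53 CPM in the high run and 4.40 to 13.2 CPM in the low run at 3 years. At 1 year and 37.5 nM it was 6.02 to 10.7 CPM in the high run and 11.4 to 13.4 CPM in the low run. That difference did not pass (unadjusted p = 0.0537, adjusted p = 0.242 in edgeR). At 1 year and 3.75 nM it was 6.13 to 13.5 CPM in the high run and 8.22 to 11.9 CPM in the low run. In the fit without 3-year replicate 3, 3662 of 19933 genes passed in edgeR. There the log2 fold change of fut9b.1 was -0.43 with an edgeR adjusted p of 0.0226, which passes. Within the groups it was -0.46 at 3 years, -0.50 at 1 year and 37.5 nM and -0.18 at 1 year and 3.75 nM, and 0 copies passed in any of them, where 1.02%, 2.05% and 17.8% of 19592 genes did. Dermis and scale markers (9 of 9 over 1 CPM) were uneven between the runs. They summed to 7325 to 23867 CPM in the high run and 2012 to 8191 CPM in the low run at 3 years. At 1 year and 37.5 nM they had 31398 to 35351 CPM in 4 high-run fish and 2501 CPM in the other, against 976 to 12025 CPM in the low run, and at 1 year and 3.75 nM 10559 to 33214 CPM in the high run and 2328 to 14175 CPM in the low run. The runs overlapped for these markers in every group. Other lists differed without overlap. At 3 years mucous cell markers were higher in the high run (542.8 to 973.6 CPM) than in the low run (276.7 to 495.6 CPM). At 1 year and 37.5 nM intestine and liver markers were lower in the high run (10.2 to 19.3 CPM) than in the low run (29.4 to 97.6 CPM). At 1 year and 3.75 nM the high run was lower for ionocytes (67.8 to 73.9 against 100.1 to 143.2 CPM). It was also lower there for skin epithelium (30287 to 38851 against 51922 to 64973 CPM). The part of these lists in the run differences was not tested. The run differences of fut9b.2 (0.02 ± 0.39), fut9b.3 (0.05 ± 0.29), fut9b.4 (-0.08 ± 0.20), fut9b.5 (0.04 ± 0.27) and fut9b.6 (-0.21 ± 0.20) had edgeR adjusted p-values from 0.521 to 0.975.

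**Figure D4:**
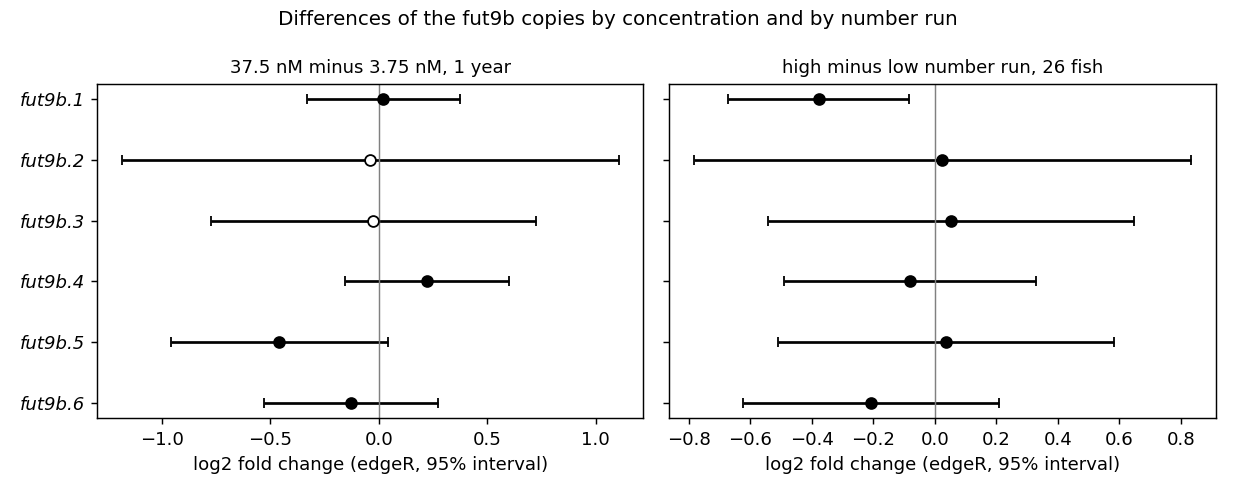
Log2 fold change of each copy with its 95% interval (edgeR), for 37.5 nM minus 3.75 nM at 1 year (left, open circles from the fit without a filter) and for the high minus the low fish number run over 26 fish (right). Every interval on the left includes 0, and on the right that of fut9b.1 lies below 0 at -0.67 to -0.08, with an adjusted p of 0.0750.

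Genes whose level followed fut9b.2 most closely were ranked by the Pearson correlation of log2 CPM over 26 fish among 19592 genes. Its neighbour copy fut9b.3 had 0.953. Of the genes outside the family si:ch211-236p5.3 was nearest (0.951), with 5.29 to 25.4 CPM at 3 years, against 0.600 to 1.50 CPM at 1 year and 37.5 nM and 0.411 to 1.17 CPM at 1 year and 3.75 nM. Its 3-year fish were all above its 1-year fish, which held for 8 (0.0408%) of the 19592 genes. The ranking used the gap between the ages, so this separation is a description and no separate support. Then came ipp (0.858), with 5.19 ± 1.05 CPM at 3 years, against 2.84 ± 0.296 and 3.03 ± 0.577 CPM at 1 year (SD; 37.5 and 3.75 nM), and si:dkeyp-51b9.3 (0.858), with 1.43 ± 1.14 CPM, against 0.0300 and 0.0730 CPM. si:ch211-195h23.3 (0.844) and ENSDARG00000101802, an identifier without a symbol (0.819), completed the 5. The ages did not overlap for si:dkeyp-51b9.3 and si:ch211-195h23.3 either, and they overlapped for ipp and ENSDARG00000101802. These correlations include the gap between the ages, and by Spearman's rank correlation 1 of the 5 stayed among the first 5.

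With group means removed, the 5 genes nearest to fut9b.2 were P2RX4, an ATP-gated ion channel (0.755), dnase2, a lysosomal nuclease (0.741), DHRS9, a retinol dehydrogenase (0.730), si:dkey-182g1.2 (0.723) and FUOM, a fucose mutarotase that interconverts forms of free fucose (0.717). FUOM and dnase2 left the first 5 both by Spearman correlation and with a prior count of 0.5, while P2RX4 and DHRS9 were kept in both. FUOM had 1.02 to 3.38 CPM at 3 years, against 1.45 to 2.63 CPM at 1 year and 37.5 nM and 1.31 to 2.54 CPM at 1 year and 3.75 nM. P2RX4 had 1.42 to 6.76 CPM at 3 years, against 1.76 to 3.77 and 1.46 to 4.08 CPM at 1 year. In 1-year fish fut9b.2 had only 0 to 8 reads, so counting error weighs on most of the points ranked here. Genes of 1 fish share its library, depth and tissue makeup, so these values are descriptions over 26 fish.

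The 5 nearest genes on each side in RefSeq order were taken, passing over any entry not matched to 1 identifier in the counts. They were LHX2, crb2b, NAIF1, si:ch211-51h9.7 and GLE1 before fut9b.1, and CTU1, GCN1, RAB35, BICDL1 and rad9b after fut9b.5. Of these, 6 passed the filter with age and 0 passed the test in edgeR, where 1.27% of all genes did. At an unadjusted p under 0.05 there was 1, beside 3855 of 18935 genes. The smallest edgeR adjusted p was 0.241. The log2 fold changes of these 6 with age were -0.11 to 0.32, the highest that of si:ch211-51h9.7 (0.32 ± 0.15, SE, unadjusted p = 0.0475 in edgeR). The other 4 were too low to test: crb2b had 0.212 ± 0.115 CPM at 3 years, against 0.477 ± 0.143 CPM at 1 year and 37.5 nM (SD), and LHX2, BICDL1 and rad9b averaged at most 0.187 CPM in these groups. GCN1, the most abundant, had 150.7 ± 18.6 CPM at 3 years and 163.5 ± 11.5 CPM at 1 year and 37.5 nM (SD). With concentration 7 were tested and 0 passed in edgeR, where 4.28% of all genes did. At an unadjusted p under 0.05 there were 3, beside 4311 of 18793 genes. The smallest edgeR adjusted p was 0.0698, and the log2 fold changes were -0.36 to 0.12.

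**Figure D5:**
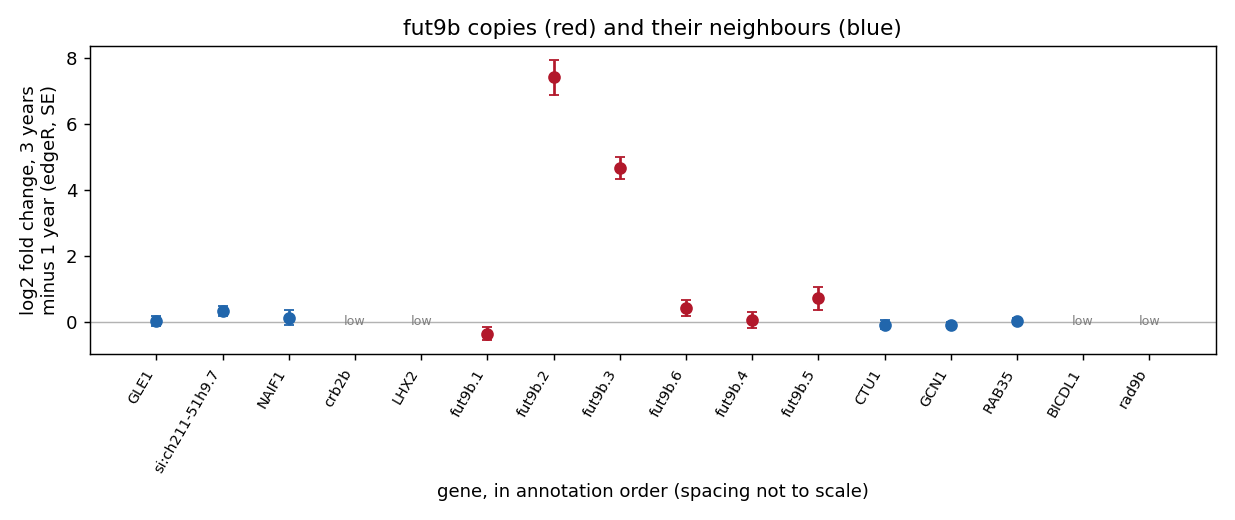
Log2 fold change of 3 years over 1 year at 37.5 nM with its SE (edgeR) for the copies (red) and the 5 nearest genes on each side matched to an identifier in the counts (blue), in RefSeq annotation order, with "low" where a gene did not pass the filter. fut9b.2 (7.42) and fut9b.3 (4.66) stand next to each other, while the neighbouring genes tested lie between -0.11 and 0.32.

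Of 69 other genes of fucosylation in 6 lists, 60 were tested between the ages: 0 were higher (0.676% of all genes) and 1 was lower (0.597% of all genes) at 3 years, with a median log2 fold change of 0.01, against 0.03 over all genes. The gene was SELE (ENSDARG00000042138), named for E-selectin, an endothelial receptor for fucosylated and sialylated chains. Its level was 0.288 to 1.69 CPM at 3 years (median 0.752), against 1.02 to 4.85 CPM (median 2.70) at 1 year and 37.5 nM, and the groups overlapped. In 1-year fish at 3.75 nM it was 1.04 to 2.56 CPM. Its log2 fold change with age was -1.82 ± 0.39 (SE, edgeR adjusted p = 0.0335). Leaving out each fish kept it under 0.05 in 8 of 17 fits, with adjusted p from 0.0127 to 0.0700 and log2 fold changes of -2.07 to -1.68, and within the runs it did not pass (-1.44 in the low run, adjusted p = 0.238, and -2.35 in the high run, adjusted p = 0.0830, both edgeR). A second gene of that name, sele (ENSDARG00000009123), had 5.61 ± 2.17 CPM at 3 years and 3.90 ± 0.770 CPM at 1 year and 37.5 nM, a log2 fold change of 0.54 ± 0.21 (SE, edgeR adjusted p = 0.175). Endothelium markers (3 genes) summed to 71.9 to 285.9 CPM at 3 years (median 91.3) and 69.1 to 155.9 CPM at 1 year and 37.5 nM (median 89.4). The highest 3-year value was that of replicate 3. The part of these markers in the result was not tested.

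Between concentrations 60 genes of the lists were tested, 0 were higher (1.28% of all genes) and 2 were lower (3% of all genes) at 37.5 nM, with a median log2 fold change of 0.00, against -0.01 over all genes. Both encode galactosyltransferases, listed with the synthesis of acceptor chains. B4GALT5 (ENSDARG00000010301), which makes lactosylceramide, had 18.1 to 23.5 CPM at 37.5 nM, against 22.5 to 40.1 CPM at 3.75 nM, a log2 fold change of -0.53 ± 0.11 (SE, edgeR adjusted p = 0.0310). B4GALT7 (ENSDARG00000021899), which acts on the linker of proteoglycan chains and not on N-acetyllactosamine, had 4.51 to 8.99 CPM at 37.5 nM, against 7.36 to 15.6 CPM at 3.75 nM, a log2 fold change of -0.63 ± 0.16 (edgeR adjusted p = 0.0360). Both passed in the low run alone (-0.68 and -1.16, edgeR adjusted p = 0.00189 and 0.00168) and not in the high run alone (-0.39 and -0.21, adjusted p = 0.946 and 0.962). In the same low-run fish the ionocyte list, mostly ATP6V1A by level, summed to 69.2 to 76.2 CPM at 37.5 nM, against 100.1 to 143.2 CPM at 3.75 nM. Skin epithelium markers summed to 35542 to 52551 CPM, against 51922 to 64973 CPM. Both lists had lower medians at 37.5 nM, the ionocyte list without overlap. In the high run neither list had a lower median at 37.5 nM, and their part in these calls was not tested. With each fish left out in turn, B4GALT5 passed in 9 of 18 fits and B4GALT7 in 8. Here, too, concentration and deposited table cannot be told apart.

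The list of other fucosyltransferases held 13 identifiers, 9 of them tested. With age or with concentration 0 passed in edgeR, where 1.27% and 4.28% of all genes did. At an unadjusted p under 0.05 there were 3 and 1, beside 3855 of 18935 and 4311 of 18793 genes. FUT8 (ENSDARG00000015449), which adds core fucose to N-glycans, had 16.1 ± 2.72 CPM at 3 years, 14.2 ± 4.85 CPM at 1 year and 37.5 nM and 14.5 ± 3.99 CPM at 1 year and 3.75 nM (SD). POFUT1 (14.4, 13.1 and 14.2 CPM in the same order) and POFUT2 (5.43, 4.48 and 6.40 CPM) add O-linked fucose to protein repeats, and POFUT2 came nearest to the threshold with concentration (-0.53 ± 0.15, SE, edgeR adjusted p = 0.0525). FUT11, with 6.22 ± 0.742, 4.86 ± 0.727 and 4.90 ± 0.623 CPM, came nearest with age (0.36 ± 0.12, SE, edgeR adjusted p = 0.116). FUT10 had 3.63, 3.14 and 3.12 CPM, and fut7, whose mammalian enzyme completes selectin ligands in leukocytes, had 0.892, 0.767 and 0.556 CPM.

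The symbol FUT9 stood for 5 identifiers in the name table. The most abundant, ENSDARG00000074362, had 8.10 ± 1.46 CPM at 3 years, 10.3 ± 1.64 CPM at 1 year and 37.5 nM and 11.1 ± 2.28 CPM at 1 year and 3.75 nM, a log2 fold change with age of -0.34 ± 0.12 (SE, edgeR adjusted p = 0.153). ENSDARG00000070979 had 2.26, 2.88 and 3.07 CPM and ENSDARG00000059056 had 0.495, 0.831 and 0.773 CPM in the same order, with log2 fold changes with age of -0.33 ± 0.32 and -0.71 ± 0.34 (SE, edgeR adjusted p = 0.578 and 0.244). ENSDARG00000042643, ENSDARG00000016460, fut9d (ENSDARG00000028098) and a second FUT8 (ENSDARG00000088117) were below the filter, with mean levels of at most 0.249 CPM in every group.

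GDP-fucose supply and transport (13 genes tested), fucose removal (3), acceptor chains (19), sialyl caps (7) and selectins with their ligands (9) held 0 further genes past the threshold in either comparison (edgeR). With age the smallest adjusted p of each was that of GMPPA (ENSDARG00000024112), a subunit of GDP-mannose pyrophosphorylase, at 0.185 (0.20 ± 0.08 on the log2 scale), of the fucosidase FUCA2 at 0.437 (-0.17 ± 0.13), of B3GNT3 (ENSDARG00000043482), which extends lactosamine chains, at 0.0960 (-0.90 ± 0.27) and of the sialyltransferase st6gal2b at 0.159 (-0.56 ± 0.21). With concentration these were GMPPB, which makes GDP-mannose, at 0.0936 (-0.56 ± 0.19), FUCA2 at 0.0806 (0.35 ± 0.12), st6gal2b at 0.424 (0.22 ± 0.15) and SELE at 0.132 (0.77 ± 0.30). Between the number runs 5 of 61 genes were higher and 6 lower in the high run, beside 6.73% and 7.54% of all genes. FUT8 (ENSDARG00000015449) was among the higher, by 0.60 ± 0.10 on the log2 scale (edgeR adjusted p = 0.00126), and FUT9 (ENSDARG00000070979) among the lower, at -0.80 ± 0.21 (edgeR adjusted p = 0.0148).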

How the data were processed

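Libraries for 26 male zebrafish, 1 per skin sample, were made with Illumina's TruSeq RNA v2 kit according to the labels' protocols. The submitters' processing notes name GRCz10 as the build and list 3 tools: featureCounts 1.4.6-p4, STAR 2.4.1d and CASAVA 1.8.2. They do not say which annotation or counting settings were chosen. As their processed data, the authors deposited whole-number counts per gene and RPKM values in 2 tables, 1 for each rotenone concentration. In the deposited RPKM the library total recycles every 50 rows, so RPKM served only for implied gene lengths (approximate) and 1 alternative. The 6 copies and all gene lists were chosen with earlier results of these data known. Counts of 26 fish were tested with edgeR 4.0.16 in R 4.3.3 (TMM, filterByExpr, robust quasi-likelihood, Benjamini-Hochberg over all genes tested, threshold 0.05); log2 CPM used a prior count of 2. Groups came from the labels. Each p-value judges a difference against the spread between these fish, which in the main age and concentration fits includes run differences. The edgeR steps were tested on simulated data. DESeq2 1.42.0 and the other alternatives are described in the closing section.

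Named genes were the 6 copies, every other fucosyltransferase, members of the other lists that passed or else had the smallest p, the 5 genes most correlated with fut9b.2 (before and after removing group means) and the 5 nearest neighbours on each side matched to an identifier in the counts. Of 86 pathway entries 45 matched an identifier by symbol, 22 by the symbol's stem and 19 none. Gene symbols came from a name table and gene order from RefSeq's GRCz12tu annotation.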

Additional observations from a re-analysis of the deposited data

Results flagged for a closer look

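Values were examined in 21 sets, each from 1 group of fish. Of these, 2 held a fish far from the others by Dixon's ratio of gap to range on the log2 CPM scale. Chance gives about 1 in 20 for a single set, but the sets share the same fish and are not independent. For fut9b.4, 3-year replicate 3 was the lowest of its 8 fish, with a ratio of 0.578: its level was 9.60 CPM (3.28 on the log2 scale), and the next fish had 27.9 CPM (4.81). That fish also had the highest summed muscle marker level of the 26 fish (42653 CPM), whose part in the value was not tested. For fut9b.6, 1-year replicate 8 at 37.5 nM was the highest of its 9 fish, with a ratio of 0.502: its level was 71.6 CPM (6.16 on the log2 scale), and the next fish had 49.1 CPM (5.62).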

How the results depend on the processing

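The count of copies without overlap between ages was 2 under each alternative run, among them scaling by totals alone, which was added after seeing the data. The copies were chosen on this separation, and leaving out a fish cannot undo it, so this count does not test it. No copy passed between concentrations in any of the 18 fits that left out 1 fish (0), and 1 passed in the low run alone (fut9b.6, -0.49). Between number runs the fits that left out 1 fish gave 0 to 1 copies, the 1 being fut9b.1 without 3-year replicate 3. In that fit 3662 of 19933 genes passed. Pathway genes past the threshold between concentrations, 2 in the report, numbered 1 without a filter, 5 with DESeq2, 8 in the low run alone, 0 in the high run alone and 0 to 5 when 1 fish was left out. Between ages the count of 1 became 5 with DESeq2, 0 in each run alone, and 0 to 1 when 1 fish was left out. Of the 5 genes nearest to fut9b.2, 1 was kept by Spearman correlation; of the 5 with group means removed, 3 were kept by Spearman correlation and 2 with a prior count of 0.5, without FUOM and dnase2 in either. Where these values changed, the cause was not tested.

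The number of all genes past the threshold between concentrations, 804, was 209 without a filter, 1862 with DESeq2, 1427 with the run as a term, 5024 in the low run alone and 0 in the high run alone (995 at an unadjusted p under 0.05), and 0 (without 1-year replicate 7 at 37.5 nM or replicate 1 at 3.75 nM) to 1661 with 1 fish left out. Between ages, 241 became 1256 with DESeq2, 34 and 19 in the low and high runs alone, and 64 (without 1-year replicate 8) to 712 (without 3-year replicate 6) with 1 fish left out. Coding lengths from a reference protein table were not run. No paired analysis was possible because the labels give no replicate numbers shared between groups; replicates were numbered in order of deposition. Under 10 reads a fish, as for fut9b.2 at 1 year, depth limits what can be seen.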
